A study of Rattus norvegicus with 12 samples.

Results

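The genes described here are 10 markers of brain tissue that borders the hippocampus, measured in hippocampal RNA of male rats. They were taken by symbol from the deposited RNA table, which holds 26949 genes, and all 10 were found and passed the low-count filter that left 17935 genes for testing. Lamp5, Cux2, Fezf2, Tbr1, Foxp2 and Nr4a2 stand for cerebral cortex, Tcf7l2, Prkcd and Lef1 for thalamus, and Ppp1r1b for striatum. Male rats were held for 4 weeks in chronic intermittent hypoxia (CIH; bouts of reduced oxygen that mimic sleep apnoea) or for 4 weeks in normoxia (control), and each exposure has 3 RNA libraries, named here CIH 1 to 3 and control 1 to 3. The labels give neither strain nor age, and nothing in them ties a library to an animal of its own, so p-values measure only the spread between these libraries.

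As background, the cortex is built in layers whose neurons are set apart by transcription factors. Cux2 marks upper layers, Fezf2 specifies the deep neurons that project below the cortex, Tbr1 and Foxp2 mark the corticothalamic layer, and Nr4a2 marks deep layers and the claustrum. Thalamic neurons keep Tcf7l2 and Lef1, DNA-binding partners of beta-catenin in Wnt signalling, and medium spiny neurons of the striatum carry the phosphatase inhibitor DARPP-32, the product of Ppp1r1b. None of these genes belongs to 1 tissue alone. Tbr1 is also found in hippocampal glutamatergic neurons, Nr4a2 is induced by neuronal activity, Tcf7l2 is also used by oligodendrocytes, Lef1 by endothelial cells and Lamp5 by interneurons.

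Depth ran from 17170943 estimated counts in CIH 1, the shallowest library, to 21941173 in CIH 2. No 2 libraries of a group agreed within sampling noise (the lowest chi-square between such a pair, divided by its degrees of freedom, was 12.3). CIH 1 stood apart in markers of the dentate gyrus. Prox1, the transcription factor of dentate granule cells, had 8.77, 50.1 and 113 TPM (transcripts scaled for gene length and library size) in CIH 1, 2 and 3, against 132, 35.5 and 61.0 TPM in control 1, 2 and 3. All 8 tested genes of the dentate list were lowest in CIH 1 when counts were scaled for library size alone, and 7 of the 8 were in TPM, all but Il16. The share of all genes that were lowest in CIH 1 was not counted, so these counts have no baseline. The list summed to 255, 581 and 913 TPM in CIH and to 1107, 549 and 729 TPM in control. The part of sampled tissue in any difference below was not tested. In bulk RNA, fewer cells of a type and less RNA per cell cannot be told apart.

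RefSeq sequences before the start site (build GRCr8) were matched for 8 of the 10 genes, all but Foxp2 and Ppp1r1b. For 2 of the 8, Lamp5 and Tcf7l2, the start is also the first annotated base of the gene, while the other starts lie inside the annotated span. Shown are the 250 bases before the start of Lamp5, Cux2 and Tcf7l2. Lamp5 (chr3:143824947-143825196, plus strand) was the sole gene of the 10 whose CIH and control libraries did not overlap on either scale used below. Cux2 (chr12:40179032-40179281, plus strand) had the largest coefficient of variation between libraries. Tcf7l2 (chr1:264791085-264791334, plus strand) had a direction that depended on the unit. Capitals mark the one motif found.
Lamp5: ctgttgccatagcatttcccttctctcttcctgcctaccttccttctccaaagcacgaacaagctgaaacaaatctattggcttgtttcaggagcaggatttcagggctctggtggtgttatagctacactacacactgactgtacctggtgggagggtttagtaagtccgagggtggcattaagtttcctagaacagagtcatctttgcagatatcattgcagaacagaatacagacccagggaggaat
Cux2: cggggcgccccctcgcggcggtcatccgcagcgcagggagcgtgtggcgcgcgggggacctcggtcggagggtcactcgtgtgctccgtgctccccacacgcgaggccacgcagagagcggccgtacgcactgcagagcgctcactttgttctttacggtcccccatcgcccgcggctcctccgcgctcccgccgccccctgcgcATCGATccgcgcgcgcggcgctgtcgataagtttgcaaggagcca
Tcf7l2: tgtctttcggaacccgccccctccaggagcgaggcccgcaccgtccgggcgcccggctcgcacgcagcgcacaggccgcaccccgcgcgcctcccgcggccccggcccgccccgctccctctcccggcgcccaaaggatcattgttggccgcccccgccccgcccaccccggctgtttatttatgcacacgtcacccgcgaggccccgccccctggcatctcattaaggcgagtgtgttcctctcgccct

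The Lamp5 window was 46.4% G and C, against 72.4% for Cux2 and 73.6% for Tcf7l2, where the median of all 33469 windows was 51.2%. Each window was searched on both strands for 5 short motifs of the factor families that these genes encode. The letters were ATCGAT for Cux, ATCAAAG for TCF/LEF, GGTGTGA for T-box factors such as Tbr1, AAGGTCA for NR4A receptors and GTAAACA for forkhead factors such as Foxp2. Of the 8 windows 1 held a match, ATCGAT before Cux2 itself. That motif stood in 0.750% of all windows, the TCF/LEF motif in 3.15%, the T-box motif in 3.22%, the NR4A motif in 3.99% and the forkhead motif in 3.21%. A match is a stretch of letters, not a shown binding site.

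The question of the design is whether CIH changed these genes. In edgeR's quasi-likelihood test over all genes, 0 of 17935 genes passed an adjusted p of 0.05 (0%), with 319 at an unadjusted p under 0.05 (1.78%). DESeq2 called 10 of 26904 genes (0.0372%), and none of the 10 markers was among them. The log2 fold change, CIH over control, was above 0 for 9 of the 10 markers, against 50.6% of all genes, and its median was 0.35 against 0.00. Without CIH 1 it was above 0 for 6 of 10, against 48.4% of all genes, and the median was 0.03. Of the 6 libraries CIH 1 was most often the highest: 7 of the 10 markers were highest in CIH 1 in CPM (counts scaled for library size alone), where 25.7% of all genes were.

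**Figure D1:**
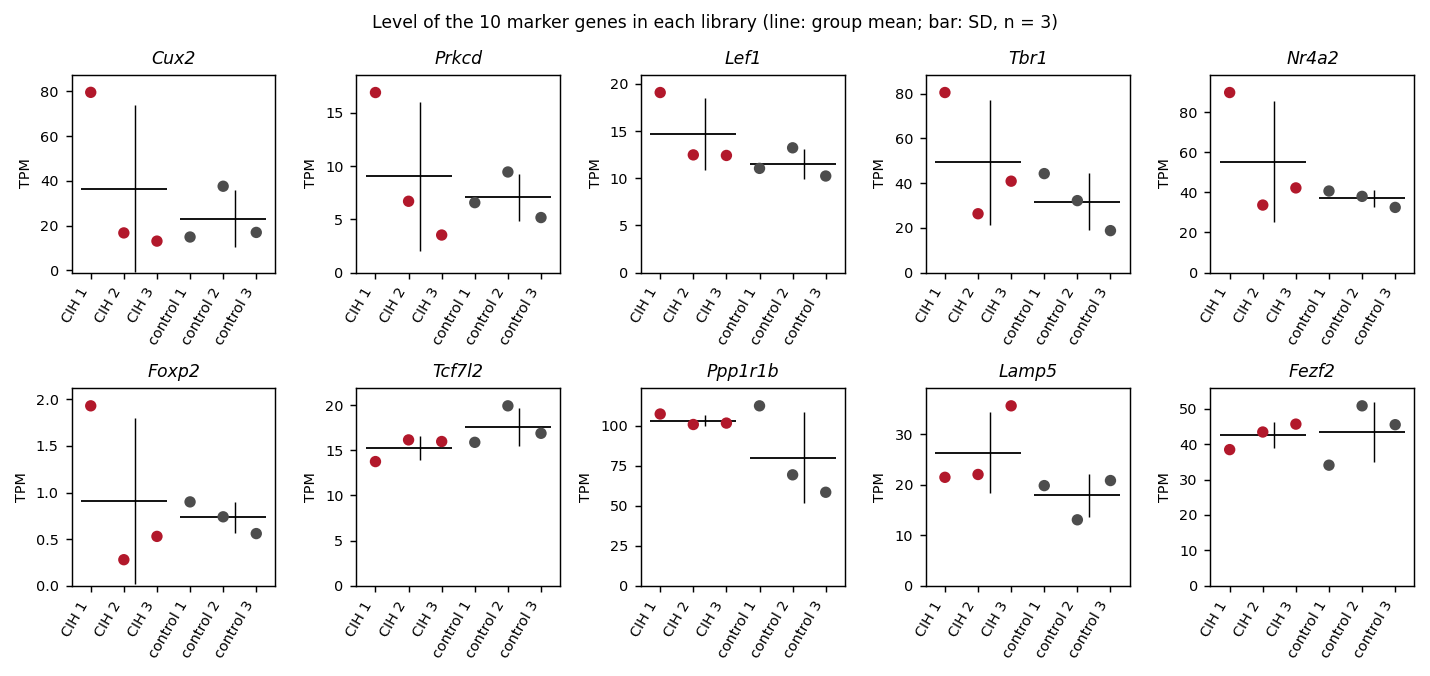
Level in TPM (vertical axis) of each of the 10 genes in the 3 CIH libraries (red) and the 3 control libraries (grey), with the group mean as a line and the SD as a bar (n = 3 each). Cux2, Prkcd, Tbr1, Nr4a2, Foxp2 and Lef1 have 1 point far above the rest, CIH 1, while Ppp1r1b has 2 low points, control 2 and control 3.

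Cux2, the homeodomain factor of upper cortical layers (gene ID 288665), had the largest coefficient of variation of the 10, 80.4% in CPM. By highest over lowest library Foxp2 spanned more, 6.58-fold in CPM against 5.65-fold for Cux2. Cux2 had 79.5, 16.8 and 13.1 TPM in CIH 1, 2 and 3, against 14.92, 37.58 and 16.97 TPM in control 1, 2 and 3. CIH 1 was highest and control 2 second, and the other 4 libraries lay close together, so the groups overlapped. Its log2 fold change was 0.56 (SE 0.68, adjusted p = 1.00 by edgeR), and -0.63 without CIH 1. In CIH 1 its CPM was 4.24 times the median of the other 5 libraries.

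Prkcd, protein kinase C delta, a kinase enriched in thalamic relay neurons (gene ID 170538), followed the same order at the top. It had 16.9, 6.69 and 3.52 TPM in CIH, against 6.56, 9.44 and 5.16 TPM in control. CIH 1 was highest, control 2 second and CIH 3 lowest for Prkcd as for Cux2. Its log2 fold change was 0.33 (SE 0.57, adjusted p = 1.00 by edgeR), and -0.55 without CIH 1.

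Lef1, a TCF/LEF factor of the thalamus (gene ID 161452), moved less. It had 19.1, 12.5 and 12.4 TPM in CIH, against 11.04, 13.22 and 10.23 TPM in control, again with CIH 1 highest and control 2 second. The log2 fold change was 0.32 (SE 0.22, adjusted p = 1.00 by edgeR) and 0.05 without CIH 1. Vessel markers moved with it in CIH 1: of 14 genes on the endothelial and mural list, 14 were highest there in CPM and 13 in TPM, all but Flt1, and the list summed to 566, 493 and 432 TPM in CIH, against 479, 404 and 385 TPM in control. Their part in the Lef1 value was not tested.

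Tbr1, the T-box factor of deep cortical layers (gene ID 680427), was also highest in CIH 1 but differed in its second library. It had 80.5, 26.3 and 40.9 TPM in CIH, against 44.3, 32.2 and 18.7 TPM in control. Control 1 and CIH 3 followed CIH 1, and control 3 was lowest. The log2 fold change was 0.63 (SE 0.46, adjusted p = 1.00 by edgeR) and 0.08 without CIH 1.

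Nr4a2, the orphan nuclear receptor Nurr1 (gene ID 54278), had 89.7, 33.6 and 42.2 TPM in CIH, against 40.6, 38.0 and 32.5 TPM in control. Leaving CIH 1 aside, the other 5 libraries spanned 1.303-fold in CPM, while CIH 1 lay 2.30-fold above their median. Its log2 fold change was 0.54 (SE 0.35, adjusted p = 1.00 by edgeR) and 0.01 without CIH 1. Because Nr4a2 is induced by activity, 10 other activity-induced genes were read beside it. Of these, 4 were higher and 6 lower in CIH, 0 passed the test, and 1 was highest in CIH 1 in CPM; the list ran from Fosb at a log2 fold change of -0.15 (SE 0.43) to Fos at 0.34 (SE 0.52).

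Foxp2, a forkhead factor of deep cortical layers, thalamus and striatum (gene ID 500037), was the least abundant, with 23 to 128 estimated counts per library. It had 1.93, 0.28 and 0.53 TPM in CIH, against 0.90, 0.74 and 0.56 TPM in control. The CIH group held both the highest library, CIH 1, and the 2 lowest, CIH 2 and CIH 3. The log2 fold change was 0.29 (SE 0.65, adjusted p = 1.00 by edgeR) and -0.81 without CIH 1.

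Lamp5, a lysosome-associated membrane protein of upper-layer neurons and of some interneurons (gene ID 362220), followed another order. It had 21.45, 22.01 and 35.58 TPM in CIH, against 19.8, 13.1 and 20.8 TPM in control. CIH 3 was highest and control 2 lowest, and every CIH library lay above every control, by a narrow margin between CIH 1 and control 3. Groups failed to overlap for 5.70% of all genes, and for 3.05% with CIH higher, beside which the count here was 1 of 10. The log2 fold change was 0.56 (SE 0.26, unadjusted p = 0.0659, adjusted p = 1.00 by edgeR), 0.29 without CIH 3 and 0.38 without control 2.

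Fezf2, the zinc finger factor of deep projection neurons (gene ID 305719), varied least in CPM, with a coefficient of variation of 13.9% over the 6 libraries, against 80.4% for Cux2. It had 38.4, 43.4 and 45.6 TPM in CIH, against 34.1, 50.8 and 45.5 TPM in control. CIH 1 and control 1 were its 2 lowest libraries, although CIH 1 was the highest for 4 of the other 5 cortical markers. Its log2 fold change was -0.03 (SE 0.17, adjusted p = 1.00 by edgeR).

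**Figure D2:**
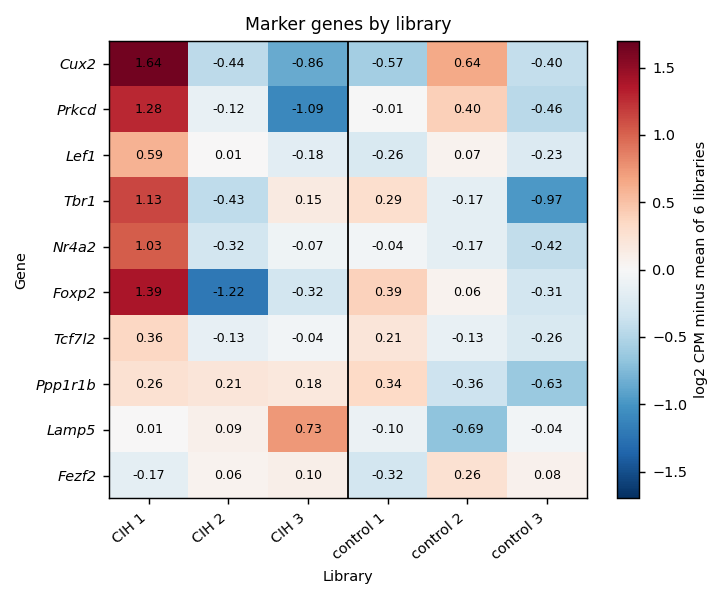
Log2 CPM of each gene (rows) in each library (columns) minus the gene's mean over the 6 libraries; red is above and blue below that mean. CIH 1 is at 1.64 for Cux2, 1.39 for Foxp2, 1.28 for Prkcd and 1.13 for Tbr1, but at 0.01 for Lamp5 and -0.17 for Fezf2.

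Ppp1r1b, which encodes DARPP-32, an inhibitor of protein phosphatase 1 that relays dopamine signals (gene ID 360616), was the most abundant of the 10 per length. It had 107, 101 and 102 TPM in CIH, against 112, 69.3 and 58.4 TPM in control. The 3 CIH libraries agreed closely and control 1 lay above them, so the groups overlapped through 1 control. The log2 fold change was 0.37 (SE 0.24, adjusted p = 1.00 by edgeR), 0.70 without control 1 (adjusted p = 0.607) and 0.35 without CIH 1.

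Other genes of striatal medium spiny neurons differed in their order. In TPM, control 2 and control 3 were the 2 lowest libraries for 3 of 14 tested genes of the other striatal list, as for Ppp1r1b: the sodium channel subunit gene Scn4b, the small G protein gene Rasd2 and the phosphodiesterase gene Pde10a. Scn4b had 8.17, 7.86 and 20.6 TPM in CIH, against 15.9, 3.25 and 4.90 TPM in control. The dopamine receptor gene Drd1 had 9.47, 2.03 and 2.78 TPM in CIH, against 2.82, 5.72 and 3.08 TPM in control, and Adora2a, the adenosine receptor gene of striatopallidal neurons, kept to 2.00 to 2.45 TPM in all 6 libraries. The ratio of Ppp1r1b to Drd1 in TPM was 11.3, 49.6 and 36.5 in CIH, against 39.9, 12.1 and 19.0 in control. Of 14 tested genes in the other striatal list, 6 were higher and 8 lower in CIH, with a median log2 fold change of -0.03 and 0 past the test; the lowest was Rgs9, a regulator of G protein signalling, at -0.87 (SE 0.33). Isl1, a striatal lineage factor, was at 0 counts in 5 libraries and at 3 in control 1.

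Myelin genes were read beside Ppp1r1b, and they too had control 1 highest and control 2 and control 3 lowest in summed TPM. Mbp, a main myelin protein gene, had 4995, 5089 and 6982 TPM in CIH, against 7666, 2754 and 2475 TPM in control, and the list of 9 oligodendrocyte genes summed to 7357, 7861 and 10650 TPM in CIH, against 11490, 4402 and 4146 TPM in control. All 9 were higher in CIH, by a median of 0.30 on the log2 scale, with 0 past the test. Wfs1, a marker of CA1 pyramidal cells, showed the same 2 low controls, at 390, 219 and 533 TPM in CIH, against 575, 186 and 73.7 TPM in control. The CA1 list was split: control 2 and control 3 were its 2 lowest libraries in TPM for 2 of 4 genes, Wfs1 and Pou3f1. Fibcd1, of the same list, was lowest in CIH 1 in CPM. The part of either cell type in the Ppp1r1b value was not tested. Mbp, Wfs1, Drd1, Adora2a, Isl1, Scn4b, Rasd2 and Pde10a were picked for this after their values were seen, as was Prox1 above.

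Among 13 genes of the DARPP-32 pathway, among them phosphatase 1 catalytic subunits, the protein kinase A and calcineurin genes and the receptors upstream, 4 were higher and 9 lower in CIH, with a median log2 fold change of -0.04 and 0 past the test. They ran from Ppp1r1a, a related inhibitor, at -0.16 (SE 0.27) to Drd1 at 0.24 (SE 0.58).

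Tcf7l2, the TCF/LEF factor of thalamic neurons and oligodendrocytes (gene ID 679869), gave a different answer in each unit. It had 11.04, 7.82 and 8.34 CPM in CIH, against 9.94, 7.83 and 7.18 CPM in control. In TPM it stood at 13.8, 16.2 and 16.0 in CIH, against 15.9, 19.9 and 16.9 in control. CIH 1 was thus the highest library in CPM and the lowest in TPM. The edgeR log2 fold change on counts was 0.12 (SE 0.20, adjusted p = 1.00) and -0.05 without CIH 1, while limma on log2(TPM + 1) gave -0.19 (SE 0.15, adjusted p = 1.00).

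TPM divides by a length and CPM does not, so for a length held fixed the ratio of CPM to TPM would be nearly the same in every library. For Tcf7l2 it was 0.80, 0.48 and 0.52 in CIH, against 0.63, 0.39 and 0.43 in control, a 2.04-fold span. For the other 9 genes that span was 1.035-fold to 1.172-fold. Which Tcf7l2 transcripts lay behind the values of each library was not tested.

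**Figure D3:**
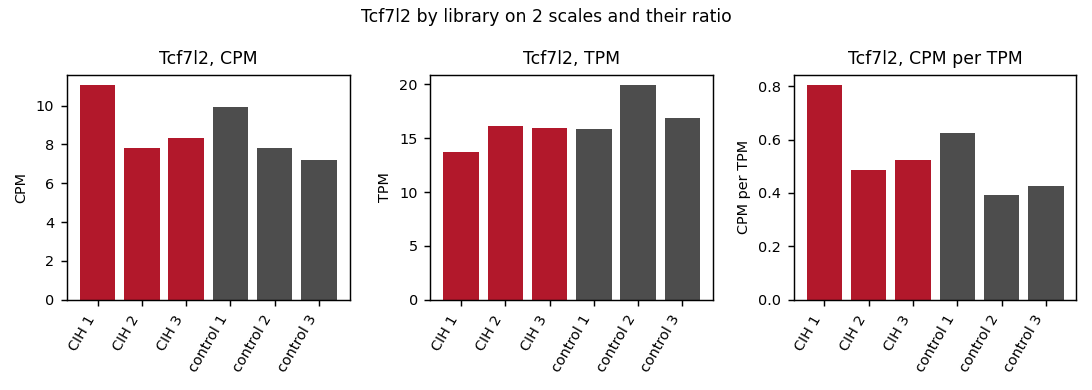
Tcf7l2 in each library in CPM (left), in TPM (middle) and as CPM per TPM (right), with CIH in red and control in grey. CIH 1 is the tallest bar at 11.04 CPM and the shortest at 13.8 TPM, and its ratio of 0.80 is the highest.

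Other TCF/LEF factors and Wnt genes lay close to 0 in fold change. Of 9 tested, 5 were higher and 4 lower in CIH, the median log2 fold change was 0.02 and 0 passed. They ran from Tcf7 at -0.23 (SE 0.19) to the feedback target Axin2 at 0.11 (SE 0.14).

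How the markers moved together was asked over all 45 pairs of the 10 genes, with exact 2-sided permutation tests over the 6 libraries and Benjamini-Hochberg adjustment over the pairs. For 3 pairs, those among Tbr1, Nr4a2 and Tcf7l2, the log2 CPM values ranked the 6 libraries identically (Spearman's rho 1.00, exact permutation p = 0.00278, adjusted p = 0.0417 each). For Tcf7l2 that order includes a near tie, control 2 at 7.832 CPM (157 estimated counts) above CIH 2 at 7.824 CPM (165 estimated counts). Its identical ranking with Tbr1 and Nr4a2 rests on that small gap. Pearson's r was 0.92 for Tbr1 with Nr4a2, 0.94 for Tbr1 with Tcf7l2 and 0.87 for Nr4a2 with Tcf7l2, each at the smallest p that the permutations can give (exact p = 0.00139, adjusted p = 0.0208). Without CIH 1 and control 3, the 2 libraries farthest from the median, r was 0.99, 0.83 and 0.74 in the same order. With log2(TPM + 1) no pair passed: Tbr1 with Nr4a2 kept an r of 0.92 (exact permutation p = 0.00278, adjusted p = 0.125), while Tcf7l2 turned to -0.63 with Tbr1 and -0.69 with Nr4a2 (adjusted exact permutation p = 0.371 and 0.438).

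No pair with Cux2 passed the adjusted test, and correlations were not tested against each other. Pearson's r was 0.93 for Cux2 with Prkcd (rho 0.77, exact permutation p = 0.00833 and 0.103, adjusted p = 0.0938 and 0.471) and 0.74 without CIH 1 and control 2. For Cux2 with Lef1 it was 0.93 (rho 0.71, exact permutation p = 0.0181 and 0.136, adjusted p = 0.163 and 0.471) but 0.21 without those 2 libraries, so it rests on them. For Cux2 with Tbr1 it was 0.60 (rho 0.09, exact permutation p = 0.222 and 0.919, adjusted p = 0.417 and 1.00), and -0.74 without those 2 libraries. Both are cortical markers, yet below CIH 1 they ranked the libraries differently. In TPM the ratio of Cux2 to Tbr1 was 0.99, 0.64 and 0.32 in CIH, against 0.34, 1.17 and 0.91 in control.

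The contrast with the dentate gyrus was wide. In TPM the ratio of Cux2 to Prox1 was 9.06, 0.33 and 0.12 in CIH, against 0.11, 1.06 and 0.28 in control. The ratio of Tbr1 to Prox1 was 9.18, 0.52 and 0.36 in CIH, against 0.34, 0.91 and 0.31 in control. CIH 1 was highest and control 2 second in both ratios, and the remaining 4 libraries were at or below 0.52. Both ratios share Prox1, which was lowest in CIH 1 (8.77 TPM) and next lowest in control 2 (35.5 TPM). Their shared order is therefore not a separate result for each marker. Tbr1 alone had control 1 and CIH 3 above control 2. The groups overlapped in both.

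**Figure D4:**
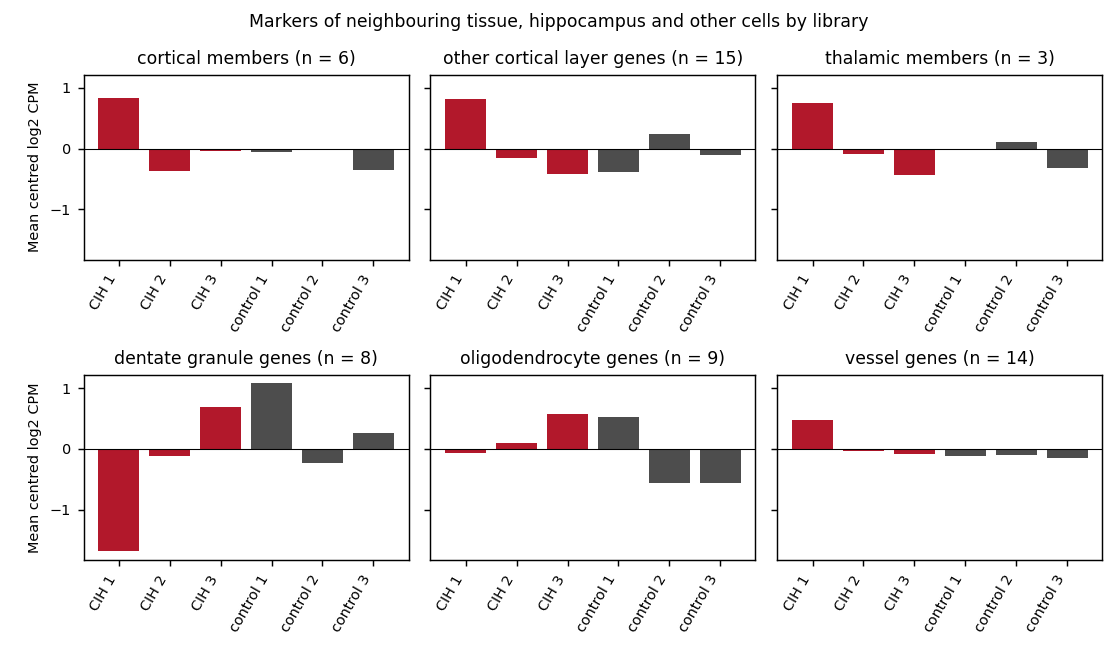
Mean over a list of log2 CPM minus each gene's mean over the 6 libraries (vertical axis), for CIH (red) and control (grey) libraries and 6 lists. CIH 1 stands at 0.84 for the cortical markers, 0.82 for the other cortical layer genes and 0.74 for the thalamic markers, and at -1.69 for the dentate granule genes. The 10 other tested thalamic genes, not drawn, had a mean of -0.07 in CIH 1.

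Other cortical layer genes were read from a list of 16, of which 15 were tested. In CIH 12 were higher and 3 lower, the median log2 fold change was 0.37 and 0 passed; 10 of the 15 were highest in CIH 1 in CPM as in TPM, and the median was -0.10 without that library. The list ran from Syt6, a synaptotagmin of the corticothalamic layer, at -1.07 (SE 0.29, unadjusted p = 0.00750, adjusted p = 1.00 by edgeR) to Cplx3, a complexin of the subplate, at 2.06 (SE 1.09, adjusted p = 1.00). Syt6 had 5.68, 13.2 and 10.8 TPM in CIH, against 15.6, 22.4 and 24.4 TPM in control, with no overlap and with CIH 1 lowest, the opposite side from most of the list. Tshz2, a zinc finger gene of deep cortical layers chosen after its values were seen, had 228, 14.8 and 19.8 TPM in CIH, against 16.9, 64.0 and 19.9 TPM in control, with CIH 1 highest and control 2 second as for Cux2.

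Other thalamic genes did not move as 1 group. Of 13 listed, 10 were tested, 4 were higher and 6 lower in CIH, the median log2 fold change was -0.21 and 0 passed. They ran from Tnnt1, a troponin gene of thalamic nuclei, at -1.01 (SE 0.75) to Slc17a6, the vesicular glutamate transporter gene VGLUT2, at 0.49 (SE 0.53). Slc17a6 had 17.2, 3.11 and 7.45 TPM in CIH, against 7.40, 6.54 and 6.33 TPM in control, with CIH 1 highest and CIH 2 lowest. Of the 10 tested genes, 3 were highest and 2 lowest in CIH 1 in CPM. Among the transcription factors of the list, all named after their values were seen, Gbx2 had at most 1 count and Shox2 at most 2 in any library, but others were present. Lhx9 had 0.46, 11.3 and 9.10 TPM in CIH, against 7.79, 5.57 and 12.1 TPM in control, with CIH 1 far the lowest. Zic1 ran from 10.02 to 32.42 TPM and Rora from 37.9 to 72.5 TPM over the 6 libraries.

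Fields of the hippocampus showed other orders. Of 8 tested dentate genes 8 were lower in CIH, from Dsp at -0.86 (SE 0.54) to Dock10 at -0.24 (SE 0.54), by a median of -0.50, or -0.04 without CIH 1. CA1 genes ran from Fibcd1 at -0.24 (SE 0.59) to Pou3f1 at 0.49 (SE 0.41), with 3 of 4 higher, CA2 genes from Map3k15 at -0.82 (SE 0.58) to Rgs14 at 0.13 (SE 0.47), with 1 of 5 higher, and CA3 genes from Grik4 at -0.17 (SE 0.40) to Bok at 0.09 (SE 0.42), with 1 of 3 higher. None passed the test. In CPM, CIH 1 was the lowest library for 4 of 5 CA2 genes and 2 of 3 tested CA3 genes, but for 1 of 4 CA1 genes. Here too the share of all genes lowest in CIH 1 was not counted. Interneuron genes ran from Npy at -0.69 (SE 0.50) to Pvalb at 0.42 (SE 0.15), with 1 of 8 higher and 0 past the test; since Lamp5 also marks interneurons, this list stands beside it, and its part was not tested.

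**Figure D5:**
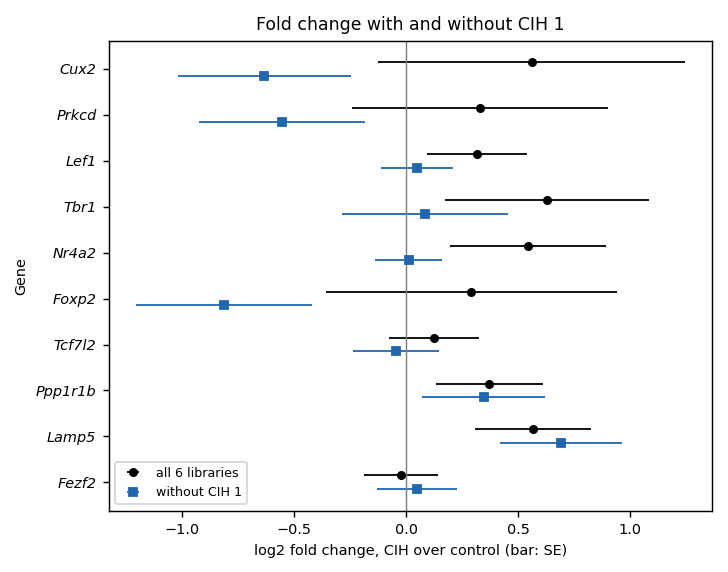
Log2 fold change, CIH over control (horizontal axis), with its SE as a bar, for each gene with all 6 libraries (black) and without CIH 1 (blue). Cux2, Prkcd, Foxp2 and Tcf7l2 cross to below 0 without CIH 1, Fezf2 crosses from -0.03 to 0.05, Tbr1, Nr4a2 and Lef1 move to between 0.01 and 0.08, and Lamp5 and Ppp1r1b stay at 0.69 and 0.35.

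For 9 of the markers the gene with the closest pattern was sought among 14783 others with a mean log2 CPM above 1, by the root mean square difference of log2 CPM about the gene's mean over the 6 libraries. Olfm2, an olfactomedin gene, lay nearest to Cux2, at 0.15, against a spread of Cux2 itself of 0.87. The stathmin gene Stmn1 lay nearest to Nr4a2 at 0.09, Tpd52 nearest to Lef1 at 0.03, the deubiquitinase gene Otud7b nearest to Ppp1r1b at 0.08, Fndc10 nearest to Fezf2 at 0.05, Slc38a8 nearest to Lamp5 at 0.15 and the T-box gene Tbx15 nearest to Foxp2 at 0.20. Uncharacterised loci lay nearest to Tbr1 (LOC103695100, at 0.16) and to Tcf7l2 (LOC103690085, at 0.05). Such a search over 14783 genes always finds a near one, and nothing about shared function is read from it.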

How the data were processed

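Per the labels' protocols, TRIzol was used to take total RNA and a BGI platform to sequence it. RSEM 1.2.12, HISAT2 2.2.0, Bowtie2 2.2.5 and the build Rnor_6.0 stand in the submitters' processing notes, which are used here without roles. The annotation and any use of strand were not given in the sources used here. Per the file headers, the authors deposited estimated counts, TPM and FPKM per gene. The deposited estimated counts, 16.0% of them not whole, were rounded and tested. The authors' TPM served for levels and alternative tests; the authors' FPKM were not tested. The small RNA table was not used here.

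Libraries were grouped by title and tested with edgeR 4.0.16 in R 4.3.3 by its quasi-likelihood test, after filterByExpr and TMM scaling; p-values were adjusted by Benjamini-Hochberg over 17935 genes and read at 0.05. SEs were derived from the fold change and F. CPM use TMM-adjusted totals; log2 CPM have a prior count of 2. Correlations used scipy 1.17.1, figures matplotlib 3.10.9. The test was checked on simulated counts. Alternatives were RLE factors, no filter, DESeq2 1.42.0, limma 3.58.1 on log2(TPM + 1) and log2(TPM + 0.1), a replicate block, and fits without each library in turn. The members and lists were chosen with earlier results of these data known. From each comparison list the genes with the highest and lowest fold change were named, plus the nearest pattern of each marker; 2 genes that this rule names are not reported here.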

Additional observations from a re-analysis of the deposited data

How the results depend on the processing

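None of the 10 markers passed the adjusted threshold under any of the 12 alternatives. Of their 120 values, 11 turned direction. Without CIH replicate 1 these were Cux2 (-0.63), Foxp2 (-0.81), Prkcd (-0.55), Tcf7l2 (-0.045) and Fezf2 (0.05); Fezf2 also turned without control replicate 2 (0.10) and control replicate 3 (0.0011). Foxp2 turned on log2(TPM + 0.1) (-0.063) and with the replicate block (-0.064), and Tcf7l2 on log2(TPM + 1) (-0.19) and log2(TPM + 0.1) (-0.20). Leaving out 1 library at a time gave -0.63 to 1.04 for Cux2, -0.17 to 0.10 for Fezf2, -0.81 to 0.72 for Foxp2, -0.045 to 0.27 for Tcf7l2 and -0.55 to 0.73 for Prkcd. The median of the 10 ran from 0.029 without CIH replicate 1 to 0.59 without CIH replicate 2. Over all genes DESeq2 called 10 genes, limma on log2(TPM + 1) and on log2(TPM + 0.1) 1 gene each, and leaving out a library 0 to 1. Pairs past the adjusted p numbered 3 on log2 CPM and 0 on log2(TPM + 1). The replicate block called 0 genes, with 8 of 10 markers above 0 and a median of 0.22; same-numbered libraries did not deviate together (-0.22, -0.05 and -0.18), so the numbers were not taken as pairs. The cause of these changes was not tested; for Tcf7l2 the ratio of CPM to TPM spanned 2.04-fold. Foxp2 had the lowest counts of the 10 markers, at 23 to 128, while the SE of the fold change was largest for Cux2 (0.68, against 0.65 for Foxp2).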

Other observations

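Control 1 was the highest library for 3 forebrain transcription factors. Six3, a factor of ventral forebrain and of the reticular thalamic nucleus, had 0, 1 and 5 estimated counts in CIH 1, 2 and 3, against 33, 3 and 3 in control 1, 2 and 3. Zic1, a zinc finger factor of medial thalamus and septum, had 15.07, 10.02 and 17.25 TPM in CIH, against 32.42, 12.72 and 11.25 TPM in control. Otx2, a factor also made by choroid plexus, had 0.25, 0 and 4.79 estimated counts in CIH, against 19.4, 0 and 4 in control. These genes were chosen after their values were seen.

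Rprm, a gene of deep cortical layers, was like Cux2 in its top libraries, with CIH 1 highest and control 2 second. It had 14.9, 1.22 and 1.58 TPM in CIH, against 1.54, 6.39 and 3.64 TPM in control. Rprm was chosen after its values were seen.

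Of 7 tested choroid plexus genes, 1 was higher in CIH and 0 passed the test; the list summed to 7.81, 8.90 and 67.3 TPM in CIH, against 65.2, 30.6 and 21.3 TPM in control.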
